A study of Homo sapiens with 3 samples.

Results

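The lysosome of THP-1 cells was followed through 58 genes, read by 144 probe sets, of the 19775 genes that the arrays could name. The rule for the members names symbols and uses no signal value, although it was written with earlier results of these data known. It takes 35 named hydrolases, activators, membrane proteins and lysosomal proteases, and every gene whose symbol begins with ATP6V or ATP6AP except ATP6V0D2. Of the 35 names 34 were found, and 24 genes were found by prefix. GLB1, the beta-galactosidase, shares its probe set with another gene in the platform table and was left out, as was the V1 subunit gene ATP6V1F. THP-1, an established line from a human monocytic leukemia, turns adherent and macrophage-like when phorbol myristate acetate (PMA) activates protein kinase C. One array each was made from undifferentiated cells, from cells labelled PMA 3 days and from cells labelled PMA 8 days. Both PMA cultures began in 200 nM PMA in plates. For PMA 3 days the drug was withdrawn after 24 h and RNA taken 3 days on (4 days by addition). For PMA 8 days it was withdrawn after 72 h and RNA taken 5 days on. All cells were kept in medium with 10% serum, and medium with 2% serum was given 16 h before RNA was taken, although the protocol does not say whether undifferentiated cells had this step. Time in PMA, time since PMA and time in culture therefore cannot be told apart.

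Every value is from 1 array per condition, so conditions could not be tested against each other and the spread between cultures is unknown. Signals are MAS5 intensities on a linear scale, and a difference is called higher or lower at 2-fold, a log2 ratio of 1. Signals under a floor of 149.8, the median of all probe sets on the arrays, were raised to it. A gene counted as measured in a comparison where it lay above the floor on at least one of its arrays. A gene was read by its brightest probe set, and signals of different genes cannot be set against each other as amounts of RNA. Probe sets of the same gene differed in their log2 ratio with an SD of 0.43 for PMA 3 days and 0.44 for PMA 8 days against undifferentiated cells, and 0.27 between the PMA arrays, over 5180 genes. This is the only error available. It holds technical spread and differences between transcripts of a gene, but no spread between cultures.

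On all arrays the trimmed mean signal was 1000, and 48.5% to 51.4% of probe sets lay above the floor. The 3' to 5' ratio, which grows as RNA degrades, was 1.36 to 1.49 for actin and 1.10 to 1.16 for GAPDH. The spiked poly-A controls had a median log2 ratio of 0.31 for PMA 3 days and 0.02 for PMA 8 days against undifferentiated cells, and -0.29 for PMA 8 days against PMA 3 days. Of the 7 myeloid markers found, LYZ, CSF1R, ITGAM, CD4 and CD14 were above the floor on every array, SPI1 barely on the PMA arrays alone and FCGR1A on none. Among markers of other cells, CD3D, CD3E, CD3G, MS4A1, EPCAM, CDH1, CDH5, VWF, COL3A1 and PDGFRB were below the floor throughout, whereas CD79A (348 to 492), HBB (382 to 442), KRT8 (131 to 199), COL1A1 (464 to 2337) and PECAM1 (18665 to 21258), which myeloid cells also express, were above it on at least one array. Several markers moved with the PMA arrays. At PMA 3 days CD14 was 40.2-fold, CSF1R 5.59-fold, ITGAM 2.47-fold and COL1A1 5.03-fold higher than in undifferentiated cells. At PMA 8 days these were 26.4-fold, 4.63-fold, 2.89-fold and 3.94-fold. For COL1A1, 2 of 4 probe sets above the floor were above 0 at PMA 3 days and 1 of 3 at PMA 8 days. For ITGAM it was 1 of 2 and 2 of 2. LYZ was 1.71-fold and 2.69-fold lower, and CD4 and PECAM1 were not called. The part of these markers in the results was not tested.

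Lysosomes digest material taken up by endocytosis, phagocytosis and autophagy, and macrophages rely on them heavily. Their soluble hydrolases work at acid pH, which the vacuolar H+-ATPase (V-ATPase) keeps by pumping protons across the lysosomal membrane at the cost of ATP. Heavily glycosylated membrane proteins such as LAMP-1 and LAMP-2 line the inner face of that membrane, and inherited loss of single members causes lysosomal storage diseases. Many lysosomal genes carry a CLEAR element near their start site, a palindrome around the E-box CACGTG that transcription factors of the MiT-TFE family bind.

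The E-box was looked up in the RefSeq promoters (GRCh38.p14) of the 41 members listed there, from 250 bases before to 50 bases after the first start listed for a gene. CACGTG reads the same on both strands, so each occurrence is counted once, and TCACGTGA is a longer form that contains it. CACGTG was present in 13 of 41 member promoters (31.7%) and in 7.43% of 27305 promoters. TCACGTGA was present in 8 of 41 (19.5%) against 1.04%. Because the element is already known from lysosomal genes, a larger share among the members is not an independent finding. The difference from all listed promoters was not tested. Windows of 30 bases are shown because the members that hold the motif include genes that were higher after PMA and genes that were not. Capitals mark the longer form where it is present and CACGTG otherwise. The first 5 lines are from genes called higher at one PMA time or both, and the other lines from genes called at neither.
MCOLN1, chr19:7522571-7522600, plus strand: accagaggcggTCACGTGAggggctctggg
MCOLN1, chr19:7522598-7522627, plus strand: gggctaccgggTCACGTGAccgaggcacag
NEU1, chr6:31862930-31862959, minus strand: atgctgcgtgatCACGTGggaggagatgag
CLN3, chr16:28492058-28492087, minus strand: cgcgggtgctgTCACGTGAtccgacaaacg
SCPEP1, chr17:56978092-56978121, plus strand: gtccgcctccgTCACGTGAtggggcgccgg
LAMP1, chr13:113297199-113297228, plus strand: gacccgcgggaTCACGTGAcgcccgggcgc
GAA, chr17:80101493-80101522, plus strand: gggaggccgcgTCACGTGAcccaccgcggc
GALNS, chr16:88857104-88857133, minus strand: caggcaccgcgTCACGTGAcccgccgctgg
ATP6V1G1, chr9:114587699-114587728, plus strand: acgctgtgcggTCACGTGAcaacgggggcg
ATP6V0D1, chr16:67481199-67481228, minus strand: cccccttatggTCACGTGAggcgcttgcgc
The MCOLN1 motifs lie 41 and 14 bases before the start site. GAA also holds TCACGTGA at 76 and at 31 bases before its start, and only the farther window is shown. LAMP1 holds 6 copies of CACGTG, the outermost 192 bases before the start, and 2 of them are TCACGTGA. CACGTG was in 4 of 15 promoters of members called higher at a PMA time (26.7%) and in 9 of 26 promoters of the others (34.6%), 3 of which were not measured. TCACGTGA was in 3 of 15 (20.0%) and 5 of 26 (19.2%). These shares were not tested against each other. The median log2 ratio of PMA 3 days to undifferentiated was 0.42 over the 13 measured members with CACGTG and 0.78 over the 25 without, and at PMA 8 days 0.40 and 0.81. A match is a description of these letters and not evidence that a factor binds there.

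The first comparison asked which lysosomal genes differed between undifferentiated and PMA 3 days cells. Of 55 measured members 18 were higher and 1 lower, where 10.4% of all 13306 measured genes were higher and 10.7% lower. The 18 were 32.7% of the members. Their sizes ran from 2.04-fold for ATP6AP2 to 6.09-fold for SGSH. The median log2 ratio of the members was 0.57 and that of all measured genes -0.12. Scaling to the poly-A controls instead, which put the median of all genes at -0.38 and 7.61% of them higher and 18.0% lower, left 12 of the 18 higher and a member median of 0.28. The calls lost were those of ATP6AP2, ATP6V1C1, GLA, IDS, MCOLN1 and NPC2. At PMA 8 days over undifferentiated 19 of 55 members were higher (34.5%) and none lower, with a median of 0.65, against 9.83% of 13555 genes higher, 8.49% lower and a median of -0.07. Both comparisons share the undifferentiated array, so that the second does not repeat the first independently. In RNA from a whole culture, a change in the number of cells of a type and a change in RNA per cell cannot be told apart. The members outside the V-ATPase and its noncoding neighbours, without the pseudogene, were higher in 14 of 33 cases at PMA 3 days and 15 of 33 at PMA 8 days, and V-ATPase genes in 4 of 20 at either time.

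**Figure D1:**
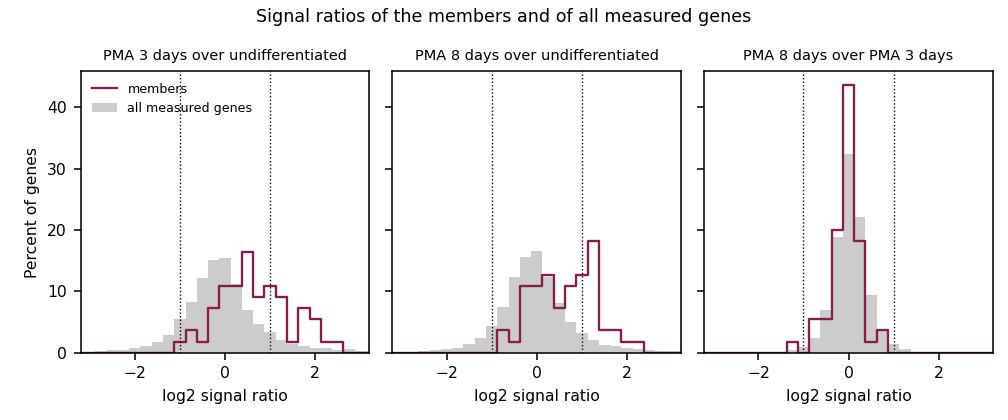
Share of genes (percent, y axis) in bins of the log2 signal ratio (x axis) for the 3 comparisons, with all measured genes as grey bars and the members as a line; dotted lines mark 2-fold. The members are shifted to higher ratios in both comparisons with undifferentiated cells, with medians of 0.57 and 0.65, and centred near 0 between the PMA arrays, with a median of -0.03.

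Enzymes and activators that break down sphingolipids held several of the members higher at both times. At PMA 3 days 4 of 8 were higher with a median log2 ratio of 1.05, and at PMA 8 days 5 of 8 with a median of 1.15. The shares higher over all measured genes were 10.4% and 9.83%. GM2A, the activator that lifts GM2 ganglioside out of the membrane for hexosaminidase, gave signals of 3906 in undifferentiated, 16882 in PMA 3 days and 13441 in PMA 8 days cells. That was 4.32-fold and 3.44-fold higher, and all 6 of its probe sets above the floor were past 2-fold at PMA 3 days. ASAH1, the acid ceramidase, went from 17418 to 52425 and 46052.5, which is 3.01-fold and 2.64-fold. Its 3 dimmer probe sets above the floor gave larger ratios at PMA 3 days, from 4.10-fold to 5.63-fold. NEU1, the lysosomal sialidase, had signals of 3220 (undifferentiated), 10949 (PMA 3 days) and 8286 (PMA 8 days), 3.40-fold and 2.57-fold higher. GLA, the alpha-galactosidase deficient in Fabry disease, was at 10637, 24757 and 23440.0 in the same order, 2.33-fold and 2.20-fold.

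The other sphingolipid members moved less or later. SMPD1, the acid sphingomyelinase, was at 660 in undifferentiated cells, 1013 at PMA 3 days and 1475 at PMA 8 days, so that it was 1.54-fold and then 2.24-fold higher. Its next probe set lay under the floor in undifferentiated cells and was at least 1.38-fold higher at PMA 8 days, a bound that leaves the call undecided there. PSAP, the precursor of the saposin activators, gave 25856, 47620 and 45475, which was 1.84-fold and 1.76-fold, while its other probe set was 2.38-fold and 1.99-fold. ARSA, the arylsulfatase deficient in metachromatic leukodystrophy, gave 340, 470 and 542. HEXA, the alpha subunit of hexosaminidase that GM2A assists, was 1.19-fold higher at PMA 3 days and 1.10-fold lower at PMA 8 days, with signals of 6740, 8012 and 6123, and its dimmer probe sets went down at both times. GM2A and HEXA, which act on the same ganglioside, thus had log2 ratios of 2.11 and 0.25 at PMA 3 days. Against an SD of 0.43 between probe sets, the first lies far beyond it and the second within it. That SD holds no spread between cultures, so it cannot show whether either gene would differ in a repeat.

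**Figure D2:**
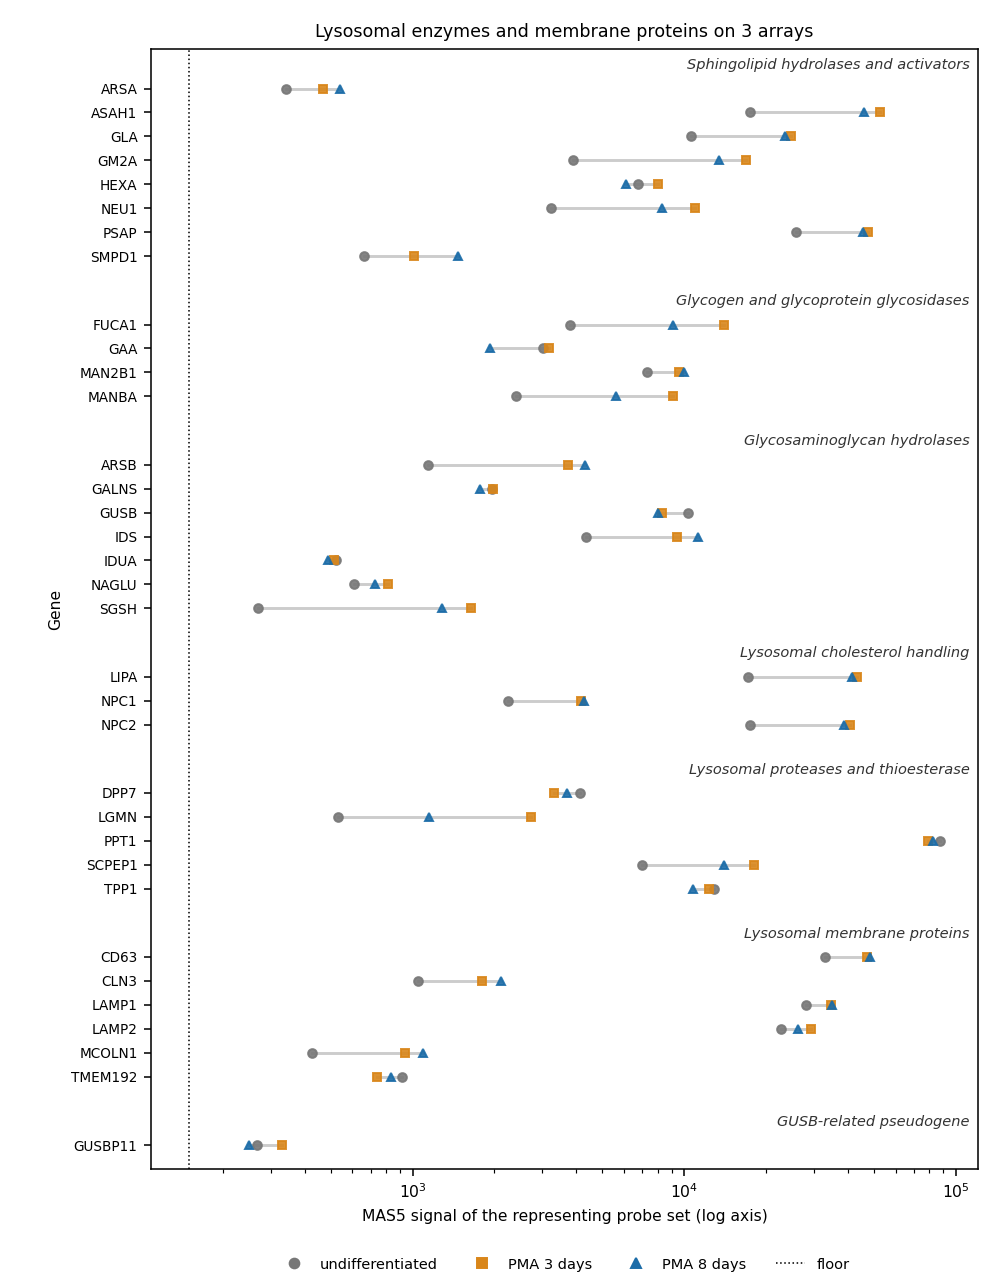
MAS5 signal (log x axis) of the representing probe set of each lysosomal enzyme and membrane protein (y axis, grouped by role), with grey circles for undifferentiated, orange squares for PMA 3 days and blue triangles for PMA 8 days, 1 array each; the dotted line is the floor of 149.8. SGSH and LGMN show the widest spans, and GALNS, IDUA and PPT1 hardly move.

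Among enzymes that remove sugars from glycoproteins and glycogen, 2 of 4 were higher at both PMA times. The shares over all measured genes were 10.4% at PMA 3 days and 9.83% at PMA 8 days, and the group is small. FUCA1, the alpha-fucosidase, gave 3809 (undifferentiated), 14027 (PMA 3 days) and 9066 (PMA 8 days), 3.68-fold and 2.38-fold. MANBA, the beta-mannosidase that cleaves the last mannose linkage of N-glycans, gave 2408, 9101 and 5631, 3.78-fold and 2.34-fold. MAN2B1, the alpha-mannosidase that acts earlier on the same chains, was only 1.32-fold and 1.37-fold higher, at 7270, 9602 and 9949. GAA, which degrades glycogen and is deficient in Pompe disease, was at 3031, 3185 and 1930.0. It was thus 1.57-fold lower at PMA 8 days than in undifferentiated cells, which did not reach the call.

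Of the 7 enzymes that degrade glycosaminoglycans, 3 were higher at both PMA times. The shares over all measured genes were 10.4% at PMA 3 days and 9.83% at PMA 8 days, and the group is small. SGSH, the heparan N-sulfatase, had signals of 270.0 in undifferentiated, 1643 in PMA 3 days and 1286 in PMA 8 days cells, 6.09-fold and 4.76-fold, the largest ratios of any member in these comparisons. Its second probe set was below the floor in undifferentiated cells and gave at least 2.17-fold and at least 1.81-fold. IDS, the iduronate sulfatase of the same pathway, gave 4360, 9409 and 11216, 2.16-fold and 2.57-fold, with 6 of its 7 probe sets above the floor higher than in undifferentiated cells at both times. ARSB, the sulfatase for dermatan and chondroitin sulfate, gave 1141, 3723 and 4304, 3.26-fold and 3.77-fold. One more ARSB probe set was 3.54-fold and 2.28-fold higher. Another was level at 574, 558 and 550.0, so whether ARSB was higher depends on the probe set. The other 4 enzymes were called at neither time. GUSB, the beta-glucuronidase, gave 10370, 8255 and 8037. GALNS gave 1955, 1981 and 1768. NAGLU, which removes N-acetylglucosamine from heparan sulfate, gave 610.0, 814 and 727, and IDUA, which removes the iduronic acid that IDS has desulfated, gave 522, 513 and 488. SGSH and IDS were thus higher beside NAGLU and IDUA, whose PMA 3 days log2 ratios of 0.42 and -0.03 lay within the spread between probe sets. GUSBP11, a pseudogene related to GUSB, gave 268, 330.3 and 250, and its probe set may share sequence with other GUSB copies, so its origin is uncertain.

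Of the 3 members that handle cholesterol in the lysosome, 2 were higher at either PMA time. Among all measured genes 10.4% were higher at PMA 3 days and 9.83% at PMA 8 days, and the group is small. LIPA, the acid lipase that frees cholesterol from the esters of lipoproteins, had signals of 17149.7 in undifferentiated, 43121 in PMA 3 days and 41402.5 in PMA 8 days cells, 2.51-fold and 2.41-fold. NPC2, which takes up the freed cholesterol in the lumen, gave 17477, 40924 and 38711, 2.34-fold and 2.21-fold, the first of which loses its call under poly-A control scaling. NPC1, the membrane protein to which NPC2 hands it, gave 2244, 4173 and 4269, which at 1.86-fold and 1.90-fold stayed under the call. All 3 were level between the PMA arrays, with log2 ratios from -0.08 to 0.03.

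Among the proteases and the thioesterase, 2 of 5 were higher at PMA 3 days and 1 of 5 at PMA 8 days. All measured genes had 10.4% and 9.83% higher, and counts this small do not set the group apart. LGMN, the asparaginyl endopeptidase that trims cathepsins, gave 532 in undifferentiated, 2720 in PMA 3 days and 1147 in PMA 8 days cells. It was 5.11-fold higher at PMA 3 days and 2.16-fold at PMA 8 days. SCPEP1, a serine carboxypeptidase-like protein, gave 7021, 18028 and 14028, 2.57-fold and 2.00-fold, the latter with a log2 ratio just under 1. TPP1, the tripeptidyl peptidase, gave 12908, 12383 and 10812. Of its 4 probe sets 2 were above 0 at PMA 3 days. At PMA 8 days all 4 were lower than in undifferentiated cells, with log2 ratios from -0.76 to -0.26. They were also lower than at PMA 3 days, from -0.70 to -0.20, and none reached the call. DPP7, a dipeptidyl peptidase, gave 4148, 3321.5 and 3708.5. PPT1, which removes palmitate from proteins, gave 87638, 79190.5 and 82335. This probe set ranked 1 of all probe sets on the PMA 3 days array, 4 on the PMA 8 days array and 25 on the undifferentiated array. Whether signals at the top of the scale understate ratios was not tested.

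Among the membrane proteins 1 of 6 was higher at PMA 3 days and 2 of 6 at PMA 8 days by their brightest probe sets. Over all measured genes 10.4% and 9.83% were higher, and counts this small do not set the group apart. LAMP1 gave 28144 (undifferentiated), 34793 (PMA 3 days) and 34943.5 (PMA 8 days), 1.24-fold at either PMA time. Its dimmer probe sets lay on either side of 0 at PMA 8 days. CD63, a tetraspanin of late endosomes and lysosomes, gave 32913, 47142.5 and 48208, 1.43-fold and 1.46-fold. TMEM192 gave 912, 738 and 831. MCOLN1, a calcium channel, gave 425, 941 and 1087, 2.21-fold and 2.56-fold. Its promoter holds the paired motif shown above, but so do those of LAMP1 and GAA, which were called at neither time. CLN3, mutated in juvenile Batten disease, gave 1046, 1808 and 2116, 1.73-fold and 2.02-fold, and its second probe set was 2.23-fold and 2.02-fold.

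LAMP2 depended on the probe set, and its probe sets are listed with different transcripts. The brightest, listed with the RefSeq transcript of isoform LAMP-2B, gave 22705, 29372 and 26237 in undifferentiated, PMA 3 days and PMA 8 days cells, 1.29-fold and 1.16-fold. The probe set listed with the transcript of LAMP-2A, the isoform that serves as receptor in chaperone-mediated autophagy, gave 4555, 15950 and 12191, 3.50-fold and 2.68-fold. A probe set listed with neither gave 10326.5, 24389 and 21017, 2.36-fold and 2.04-fold, and the dimmest 3195, 5600 and 4890, 1.75-fold and 1.53-fold. All 4 were higher than in undifferentiated cells at both times. Their PMA 3 days log2 ratios ran from 0.37 to 1.81, against an SD of 0.43 between probe sets in general. The accession names the sequence a probe set is listed with, and that its probes read no other isoform was not checked.

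The subunits of the V-ATPase are given by sector. The V1 sector, which hydrolyses ATP on the cytosolic side, was higher in 2 of 10 measured genes at PMA 3 days and 3 of 10 at PMA 8 days. Over all measured genes the shares were 10.4% and 9.83%, and counts this small do not set the sector apart. Its median log2 ratios were 0.44 and 0.45. ATP6V1H, the regulatory subunit H, gave 3251 in undifferentiated, 10620 in PMA 3 days and 10643 in PMA 8 days cells, 3.27-fold at both times. Its other probe set above the floor, which was much dimmer, gave 297, 328 and 265, so the call rests on 1 probe set. ATP6V1C1, the subunit that takes part in reversible joining of the sectors, gave 4631, 9781 and 10471.5, 2.11-fold and 2.26-fold. A second probe set gave 3.04-fold and 3.00-fold, and one more was level at 3411, 3494 and 3433, while the dimmest lay below 0 at both times. ATP6V1D, in the central rotor, gave 6261, 12419 and 13144, 1.98-fold and 2.10-fold. A larger ratio, 2.59-fold and 2.39-fold, came from its second probe set, and at least one other lay below 0 at both times. The catalytic subunit ATP6V1A (11636, 14580 and 13249) and its partner ATP6V1B2 (15769, 21575 and 22169) were 1.25-fold and 1.37-fold higher at PMA 3 days. The stalk subunits ATP6V1E1 (9174.5, 15748 and 16094) and ATP6V1G1 (15020.0, 20131 and 19820) were 1.72-fold and 1.34-fold.

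**Figure D3:**
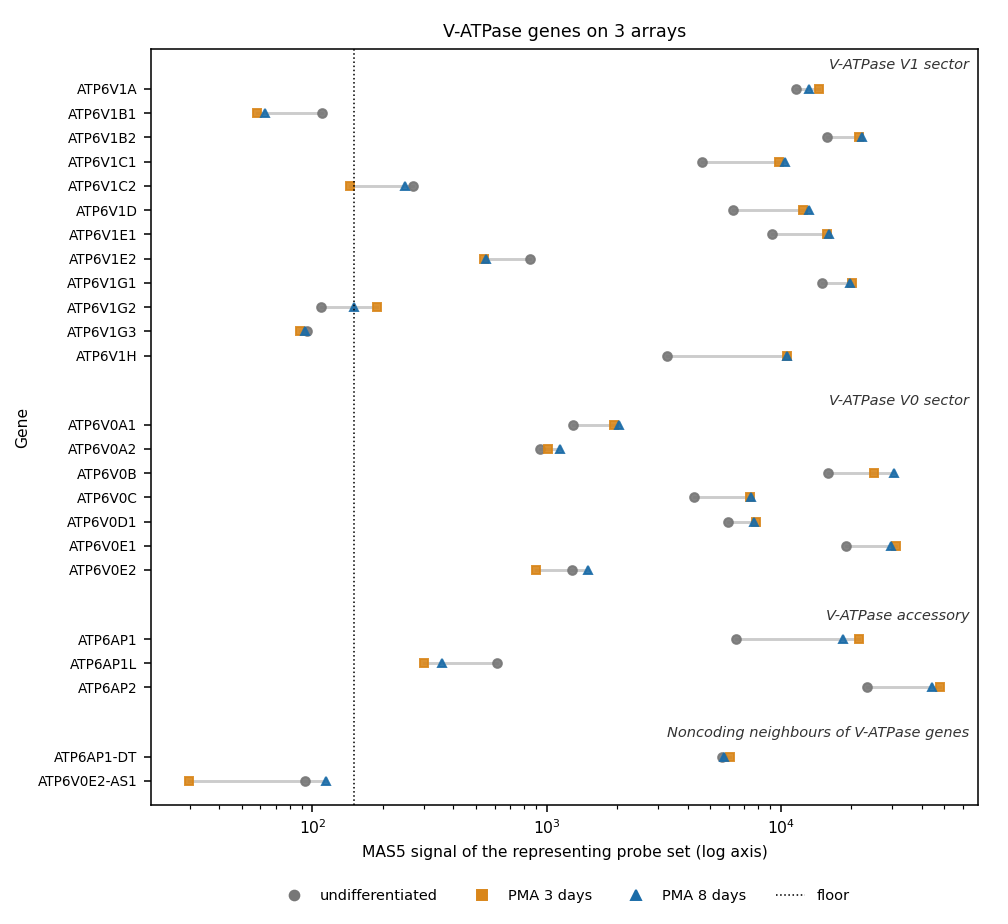
MAS5 signal (log x axis) of the representing probe set of each V-ATPase gene and its noncoding neighbours (y axis, by sector), with grey circles for undifferentiated, orange squares for PMA 3 days and blue triangles for PMA 8 days, 1 array each; signals left of the dotted line are under the floor of 149.8. ATP6V1H and ATP6AP1 show the widest spans above the floor, whereas ATP6V1B1 and ATP6V1G3 lie below it on every array.

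The membrane V0 sector, which carries the protons, had 0 of 7 genes past 2-fold at either time. Over all measured genes 10.4% and 9.83% were higher, so these counts do not tell the sectors apart. The V0 members nevertheless lay on the high side, 6 of 7 above 0 at PMA 3 days and 7 of 7 at PMA 8 days. Their medians were 0.57 and 0.64, where those of all measured genes were -0.12 and -0.07, and these differences were not tested. ATP6V0C, the main subunit of the proton-carrying ring, gave 4279, 7418 and 7461, 1.73-fold and 1.74-fold, and ATP6V0B, another ring subunit, 15889, 25128 and 30338, 1.58-fold and 1.91-fold. ATP6V0E1 gave 18906, 31078 and 29436.5, 1.64-fold and 1.56-fold, and 1 of its 7 probe sets passed 2-fold at both times. ATP6V0D1, the ubiquitous d subunit, gave 5973, 7830.5 and 7664. Of the a subunits, which direct the pump to different membranes, ATP6V0A1 gave 1301, 1932 and 2046 and ATP6V0A2 gave 939, 1010 and 1145. The dimmer ATP6V0A2 probe sets went below 0 at both times, so that its direction is not settled. At a cut of 1.5-fold in place of 2-fold, ATP6V0B, ATP6V0C and ATP6V0E1 of the V0 genes would be higher at PMA 3 days, and ATP6V0A1 as well at PMA 8 days.

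Both accessory proteins of the pump were higher at PMA 3 days. ATP6AP1 (Ac45), which helps assemble V0, gave 6409 (undifferentiated), 21682 (PMA 3 days) and 18421.5 (PMA 8 days), 3.38-fold and 2.87-fold. ATP6AP2, the prorenin receptor, gave 23461, 47950.5 and 44059.5, 2.04-fold and 1.88-fold, and its second probe set 3.03-fold and 2.47-fold. Its PMA 3 days call is lost under poly-A control scaling. ATP6AP1L, a gene that resembles ATP6AP1, was the one member called lower than in undifferentiated cells, at 615, 299 and 357, 2.06-fold lower at PMA 3 days and 1.72-fold lower at PMA 8 days. It lost the call after quantile normalization and after centring on the median of all genes. ATP6AP1-DT, a noncoding RNA that starts 198 bases from ATP6AP1 on the other strand of chromosome X, gave 5622, 6078 and 5699. Its log2 ratio of 0.11 at PMA 3 days stood beside 1.76 for ATP6AP1.

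None of the tissue-restricted isoforms of V-ATPase subunits was called at either PMA time. Over all measured genes 10.4% were higher and 10.7% lower at PMA 3 days, and 9.83% and 8.49% at PMA 8 days. With so few isoforms measured, the absence of calls does not set them apart. ATP6V1E2, the E isoform known from testis, gave 845, 539 and 550.5, 1.57-fold and 1.54-fold lower, against 1.72-fold and 1.75-fold higher for ATP6V1E1. ATP6V1C2 gave 268, 145 and 248, and its PMA 3 days signal lay under the floor, so that it was at least 1.79-fold lower there. ATP6V0E2 gave 1288, 902 and 1501, 1.43-fold lower at PMA 3 days and 1.17-fold higher at PMA 8 days. ATP6V1G2, the brain isoform of subunit G, gave 108, 188 and 150.3, with the first under the floor and the last at its edge. ATP6V1B1, an isoform of kidney and inner ear, and ATP6V1G3, one of kidney, were under the floor on all arrays, as was the noncoding ATP6V0E2-AS1. These 3 are the members that were not measured in any comparison.

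The third comparison asked what changed between PMA 3 days and PMA 8 days. Of 55 members 0 were higher and 1 was lower, where 1.37% of 13051 genes were higher and 0.958% lower. The exception was LGMN, 2.37-fold lower at PMA 8 days, which still left it above undifferentiated cells. The median log2 ratio of the members was -0.03 and that of all genes 0.04. Under poly-A control scaling these became 0.30 and 0.34, and LGMN lost its call, so the sign of the members' median rests on the scaling. Of the glycosidases, GAA was 1.65-fold, MANBA 1.62-fold and FUCA1 1.55-fold lower at PMA 8 days, all beyond 1 SD between probe sets but under the call. In the other direction ATP6V0E2 was 1.66-fold, ATP6V1C2 at least 1.65-fold and SMPD1 1.46-fold higher. In all, 40 of the 55 members lay within 1 SD of 0. Across the times, 16 members were higher than undifferentiated at both, ATP6AP2 and SCPEP1 at PMA 3 days alone, and ATP6V1D, CLN3 and SMPD1 at PMA 8 days alone. These last 5 lay within 1 SD between probe sets of the threshold at the time they were not called, and none differed 2-fold between the PMA arrays.

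Several calls sat close to the 2-fold line. At PMA 3 days 10 members passed it by more than 1 SD between probe sets and 21 lay within 1 SD of it, and at PMA 8 days 5 and 27. Of the 18 members higher at PMA 3 days, 8 had several probe sets above the floor, and in 5 of these all were above 0. GM2A, ASAH1 and SGSH had all of them past 2-fold. The other 10 calls rest on 1 probe set. Of the 19 members higher at PMA 8 days, 10 had several probe sets above the floor, and 9 rest on 1. In 5 of the 10 all were above 0, and in 2 all were past 2-fold. The 5 members not called by their brightest probe set that had another past 2-fold at PMA 3 days were ATP6V0E1, ATP6V1D, CLN3, LAMP2 and PSAP.

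**Figure D4:**
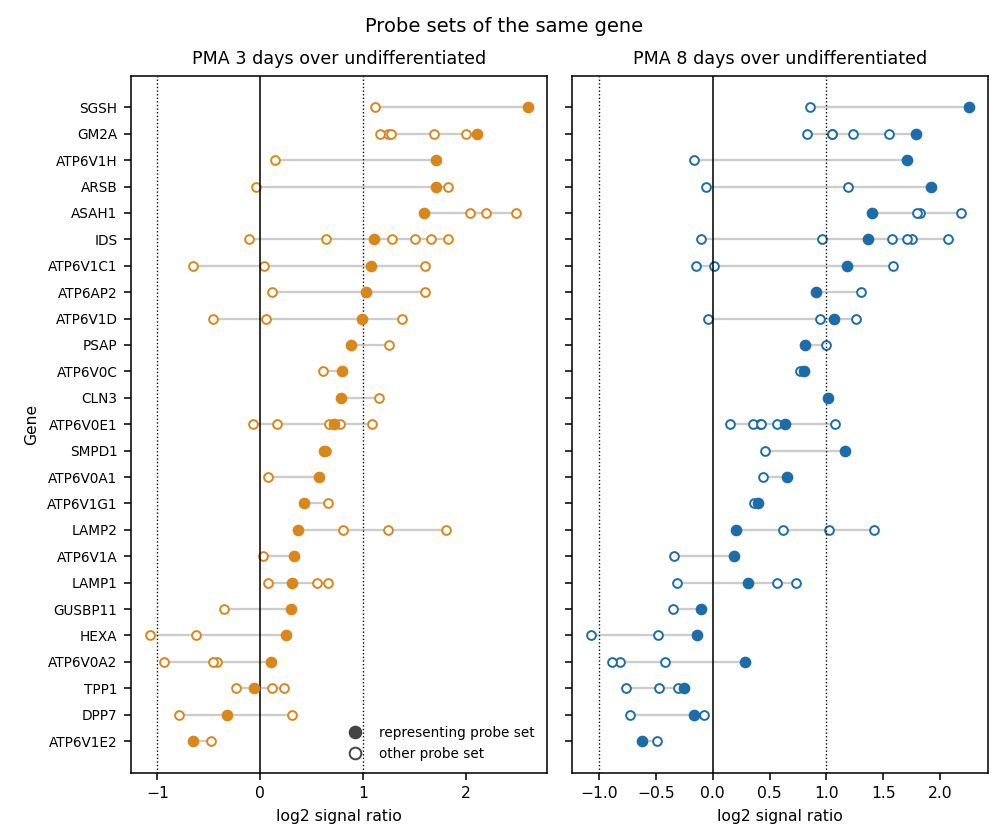
Log2 signal ratio (x axis) of every probe set above the floor for the members with several of them at PMA 3 days (y axis), with PMA 3 days over undifferentiated on the left and PMA 8 days on the right; filled circles are the probe sets that represent a gene, open circles the others, and dotted lines mark 2-fold. All GM2A and ASAH1 probe sets lie above 0, whereas ATP6V1H, ARSB, ATP6V1C1 and LAMP2 spread widely.

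Other genes of the pathway were taken from 4 lists of 91 names, of which 79 were found and measured. At PMA 3 days 19 were higher and 3 lower, and at PMA 8 days 15 and 5, with median log2 ratios of 0.54 and 0.40. Over all measured genes 10.4% were higher and 10.7% lower at PMA 3 days, and 9.83% and 8.49% at PMA 8 days. Of other lysosomal enzymes 8 of 23 were higher at PMA 3 days and 5 at PMA 8 days. GALC, the galactosylceramidase of the sphingolipid pathway, gave 4445, 19572 and 14371, 4.40-fold and 3.23-fold. DNASE2, the acid DNase, was 3.77-fold and 2.97-fold, the acid phosphatase ACP2 3.11-fold and 2.77-fold, and the phospholipase PLA2G15 2.30-fold and 2.99-fold higher. CPVL, a carboxypeptidase, was called lower at PMA 8 days with a log2 ratio of -1.15. Of other membrane proteins 7 of 26 were higher at each time. SCARB2, which carries glucocerebrosidase to the lysosome, was at 7502, 30909 and 26673.5, 4.12-fold and 3.56-fold. At each time 3 of its 4 probe sets above the floor were above 0, and the lowest log2 ratios were -0.05 and -0.63. LAPTM4A was 2.98-fold and 2.78-fold, the peptide transporter SLC15A3 2.88-fold and 2.11-fold, and OSTM1, the partner of a chloride exchanger, 2.71-fold and 2.72-fold higher. MCOLN2, a relative of MCOLN1, was lower, at 8838, 2027 and 1220.4, with log2 ratios of -2.12 and -2.86 where MCOLN1 had 1.14 and 1.35. TMEM175, a lysosomal potassium channel, was called lower at PMA 8 days against both other arrays, at 529, 405 and 184.

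The lists for enzyme sorting and modification (delivery) and for assembly of the pump held shares of higher genes near those over all genes. These counts therefore show nothing about the lists. Their median log2 ratios lay above those of all measured genes, which were -0.12 at PMA 3 days and -0.07 at PMA 8 days. The delivery list had medians of 0.54 and 0.58, and the assembly list 0.30 and 0.25. These differences were not tested. In the delivery list 2 of 14 were higher (14.3%, against 10.4% of all genes) and 1 lower at PMA 3 days, and 1 higher (7.14%, against 9.83%) and 2 lower at PMA 8 days. IGF2R, the large mannose 6-phosphate receptor that brings hydrolases to lysosomes, gave 12305, 27689 and 21954, 2.25-fold and 1.78-fold, while M6PR, the small one, had a log2 ratio of 0.56 at both times. LRP1, an endocytic receptor, was under the floor in undifferentiated cells and at least 4.46-fold and at least 3.25-fold higher. GGA2, an adaptor that loads these receptors into vesicles, was lower with log2 ratios of -1.31 and -1.36, and SUMF2 at PMA 8 days with -1.07. In the list of V-ATPase assembly and regulation 2 of 16 were higher at either time (12.5%). WDR7 and DMXL2, which form the complex that joins V1 to V0, were 2.33-fold and 2.27-fold higher at PMA 3 days (the second DMXL2 probe set was below 0), and OXR1, at 1.69-fold there, was 2.03-fold higher at PMA 8 days. VMA21, an assembly factor of V0, was called lower at PMA 3 days, with signals of 10308, 4688 and 6287, but its other probe set above the floor went up.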

How the data were processed

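Total RNA (200 ng per array, per the labels' protocols) from 3 THP-1 cultures was measured on 1 array type. The intensity values deposited by the authors were made with MAS5, per the submitters' processing notes, and its version and settings are not given in the sources used here. That the scale is linear and the trimmed mean equal, with 2% left out at either end, was read from the values. Of 54675 probe sets, 62 controls were set aside, and of the rest 41091 had 1 gene, 1801 several and 11721 none in the platform table. Entrez IDs matched 41037 of the named probe sets to RefSeq (GRCh38.p14) and changed 0 symbols. Each gene was read by the probe set with the highest mean signal. Log2 ratios were taken after the floor (50th percentile) and called at 2-fold, and a ratio with one array at the floor is a bound, written "at least". No test was run. The steps were tested on simulated data.

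Every member is named; members past 2-fold are given with 3 signals, and of each further list up to 3 calls per comparison and direction. The members, lists and alternatives were chosen with earlier results of these data known. The alternatives were quantile normalization, median centring, poly-A control scaling (27 control probe sets), floors at the 40th and 60th percentile or none, other representing probe sets, and calls at 1.5-fold and 3-fold. Detection calls were not used here. Python 3.11.15 was used with matplotlib 3.10.9, scipy 1.17.1, pandas 2.3.3 and numpy 2.4.6.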

Additional observations from a re-analysis of the deposited data

How the results depend on the processing

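No paired analysis was possible because each condition has 1 array, and for the same reason no replicate could be left out. At PMA 3 days over undifferentiated 18 members were higher and 1 lower. The higher count was 11 of 24 by the second-brightest probe sets, against 9.70% of all genes. At 3-fold it was 10 of 55, against 5.56% of all genes. The lower count was 0 after quantile normalization, median centring, the second-brightest probe set and 3-fold, where 3.90% to 9.95% of all genes were lower. By second-brightest probe sets ATP6AP1L could not be called, because its other probe set lay under the floor on all arrays. The lower count was 2 without a floor and 3 at 1.5-fold, against 18.5% and 23.8% of all genes. At PMA 8 days over undifferentiated, 19 higher became 9 of 27 by the second-brightest probe sets, against 9.08% of all genes. The higher count was 29 of 55 at 1.5-fold, against 17.6% of all genes. At 3-fold it was 4 of 55, close to the 5.13% of all genes. For the same comparison 0 lower became 3 at 1.5-fold, where 20.1% of all genes were lower. Between the PMA arrays, 0 higher became 1 under poly-A control scaling and without a floor and 2 at 1.5-fold. In these settings 4.40%, 11.4% and 7.18% of all genes were higher. Between the same arrays 1 lower became 0 under poly-A control scaling, the second-brightest probe set and 3-fold. In these settings 0.267%, 0.858% and 0.046% of all genes were lower. The 1 lower call is LGMN, which has a single probe set, so the second-brightest setting could not keep it. The lower count became 4 at 1.5-fold, where 4.76% of all genes were lower. The median went to 0.30 under poly-A control scaling. The second-brightest counts cover fewer genes by construction. The sign of called members reversed for ATP6V1H at PMA 8 days by its second probe set (-0.16). It also did for ARSB by its brightest plain _at probe set (-0.040 at PMA 3 days, -0.062 at PMA 8 days). These values lay within the SD between probe sets of 0.43 and 0.44, so they show no clear change in either direction. By brightest plain _at probe sets the V-ATPase accessory median at PMA 3 days became -1.04, where 1 gene was left. Under poly-A control scaling ATP6AP2, ATP6V1C1, GLA, IDS, MCOLN1 and NPC2 lost their call at PMA 3 days. For these, and for the probe set differences, the cause was not tested. The number of arrays limits the precision of every value.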
